A study of Mus musculus with 31 samples.

Results

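The 10 genes described are grouped as targets of cytokine signalling through STAT transcription factors. They are the feedback inhibitors Cish, Socs1, Socs2, Socs3 and Socs5, the kinases Pim1, Pim2 and Pim3, and the cytokines Lif and Osm. They were taken by symbol from a list, and all 10 were found among the 41255 genes of both expression tables. Several of them, namely Cish, Socs1, Pim1, Lif, Osm, Socs5 and Pim3, stand in gene lists that the study drew from these same libraries, so their counts and directions are not independent evidence.

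RNA was sequenced from monoclonal lines of Ba/F3, a mouse lymphoid line that needs interleukin 3 (IL-3) to grow. All lines carried an shRNA against mouse Rpl10 and expressed human RPL10, a protein of the large ribosomal subunit, from a retrovirus, as WT in clones 28, 29 and 36 and as the leukemia-associated R98S mutant in clones 11, 13 and 35. Total mRNA was available from 9 R98S and 8 WT libraries, and polysomal RNA (transcripts carrying at least 2 ribosomes) from 8 R98S and 6 WT libraries. Libraries are numbered 1 to 3 within a clone, and each clone grew from a single cell. A total mRNA library of WT36 with number 1 was not analysed here. Its profile lay among those of the mutants in the authors' principal component analysis, which was their ground for dropping it. The WT total mRNA libraries were thus selected in part by their difference from R98S. How far this widens the separation of genotypes in total mRNA was not tested. Several libraries share a clone, so p-values measure the spread between libraries and differences between genotypes rest on 3 clones each. Libraries held 8831180 to 22059792 reads counted on genes.

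When IL-3 binds its receptor, JAK kinases attached to the receptor phosphorylate STAT5, which enters the nucleus and induces early response genes. Cish and the SOCS proteins are among the products and close a feedback loop by blocking the receptor or the kinase and by marking signalling proteins for degradation. Pim kinases favour survival and protein synthesis, and Lif and Osm are secreted cytokines of the interleukin 6 family, of which Osm is known as an early target of STAT5 in blood cells.

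STAT dimers bind a palindrome of TTC and GAA around a short spacer. RefSeq promoters (build GRCm38.p6, 250 bases before to 50 bases after the transcript start) were at hand for 7 of the 10 genes, Cish, Socs1, Socs3, Pim1, Pim2, Pim3 and Lif, with 2 promoters for Pim1. They were searched for TTCNNNGAA and TTCNNNNGAA, which read the same on both strands. Of 32851 promoters of that length, 8.3% held the form with a 3-base spacer, 6.95% that with a 4-base spacer and 14.6% either of them. Among the genes described, Cish and Socs3 held a match. The promoters shown are those of both genes with a match and those of the pair with the largest fold change in polysomal RNA, 5′ to 3′ on the gene's strand with the matches in capitals. The Cish window is chr9:107296409-107296708 on the plus strand, that of Socs3 is chr11:117969317-117969616 on the minus strand, that of Socs1 is chr16:10785487-10785786 on the minus strand and that of Lif is chr11:4257318-4257617 on the plus strand.
Cish: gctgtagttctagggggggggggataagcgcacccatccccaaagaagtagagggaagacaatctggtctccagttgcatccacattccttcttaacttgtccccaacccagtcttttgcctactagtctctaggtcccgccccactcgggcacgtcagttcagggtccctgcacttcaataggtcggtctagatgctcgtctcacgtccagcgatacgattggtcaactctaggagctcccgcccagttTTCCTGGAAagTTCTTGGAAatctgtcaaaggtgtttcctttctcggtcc
Socs3: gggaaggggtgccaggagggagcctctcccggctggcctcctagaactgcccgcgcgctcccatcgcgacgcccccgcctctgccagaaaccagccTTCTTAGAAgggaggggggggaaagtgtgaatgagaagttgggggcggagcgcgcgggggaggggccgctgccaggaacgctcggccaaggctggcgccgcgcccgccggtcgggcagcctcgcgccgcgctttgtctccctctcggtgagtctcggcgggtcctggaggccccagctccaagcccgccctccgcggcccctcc
Socs1: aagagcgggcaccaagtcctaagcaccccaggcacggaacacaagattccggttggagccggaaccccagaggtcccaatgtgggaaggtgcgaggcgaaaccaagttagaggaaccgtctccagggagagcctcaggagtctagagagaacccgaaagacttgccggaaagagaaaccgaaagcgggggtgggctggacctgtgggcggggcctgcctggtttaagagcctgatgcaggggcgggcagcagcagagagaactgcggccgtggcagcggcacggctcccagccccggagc
Lif: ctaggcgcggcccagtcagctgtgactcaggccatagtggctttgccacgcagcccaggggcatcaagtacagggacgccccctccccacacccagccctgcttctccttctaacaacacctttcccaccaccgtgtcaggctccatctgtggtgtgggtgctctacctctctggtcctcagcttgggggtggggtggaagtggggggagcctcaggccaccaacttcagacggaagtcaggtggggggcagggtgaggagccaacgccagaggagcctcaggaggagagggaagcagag

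The Cish promoter held 2 sites with a 3-base spacer, TTCCTGGAA at positions 251 to 259 of the window and TTCTTGGAA at positions 262 to 270, counted from its 5′ end. The Socs3 promoter held TTCTTAGAA at positions 97 to 105. No match in the other windows says only that these letters were not in them.

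Osm (chr11:4236420-4241026) and Lif (chr11:4257557-4272514) are neighbours on the plus strand, with 16530 bases between them in the GENCODE annotation of the same build. The exons of Socs1, Socs2, Socs3, Socs5, Pim2, Pim3, Lif and Osm overlapped no other annotated gene. Exons of Cish shared 740 bases with antisense transcripts, and those of Pim1 shared 488. Whether reads were counted by strand is not given in the sources used here, so reads of such partners cannot be told apart from those of Cish and Pim1. In addition 9.35% of the 50-base windows of Cish transcripts, 8.78% of those of Pim1, 4.58% of those of Socs2 and 1.57% of those of Pim2 also occurred in transcripts of other genes, and 0 of those of the other members did.

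Per kilobase of exon, Pim1 had the highest total mRNA level of the 10 genes, with a median of 1978 normalized counts per kilobase in R98S and 2320 in WT libraries. Osm followed with a median of 298 in R98S and 225 in WT, and Lif with 223 and 131. Ranges of Osm (138 to 2667 in R98S) and Lif (128 to 499) overlapped widely, so that their order is not firm. The inhibitors Cish, Socs1, Socs2, Socs3 and Socs5 had medians of 43.4 to 73.1 in R98S and 59.0 to 109 in WT. Pim3 was at the bottom with 0 in R98S and 2.41 in WT.

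Some libraries stood apart in these genes before any comparison. In total mRNA, Cish, a well known STAT5 feedback gene, had 2224 normalized counts in R98S35 number 1, 3195 in R98S13 number 3, 2037 in WT36 number 2 and 4198 in WT36 number 3. The other 13 total mRNA libraries lay between 172 and 666. Both genotypes thus had libraries at a high and at a low level. Osm followed the same pattern, with 6060, 3829, 2683 and 1841 normalized counts in those 4 libraries and 314 to 1829 in R98S and 313 to 620.0 in WT among the others. In polysomal RNA the picture was different, since 12 of the 14 libraries had 1311 to 2624 normalized counts of Cish and the exceptions were WT28 number 2 with 294 and WT29 number 2 with 308. These WT libraries also had the lowest Osm, at 572 and 763. The polysomal libraries of R98S13 with numbers 1 and 2 were closer to each other than any other pair of a group, with a chi-square per gene of 4.56 where the next pair had 10.1. They were kept as separate samples.

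**Figure D1:**
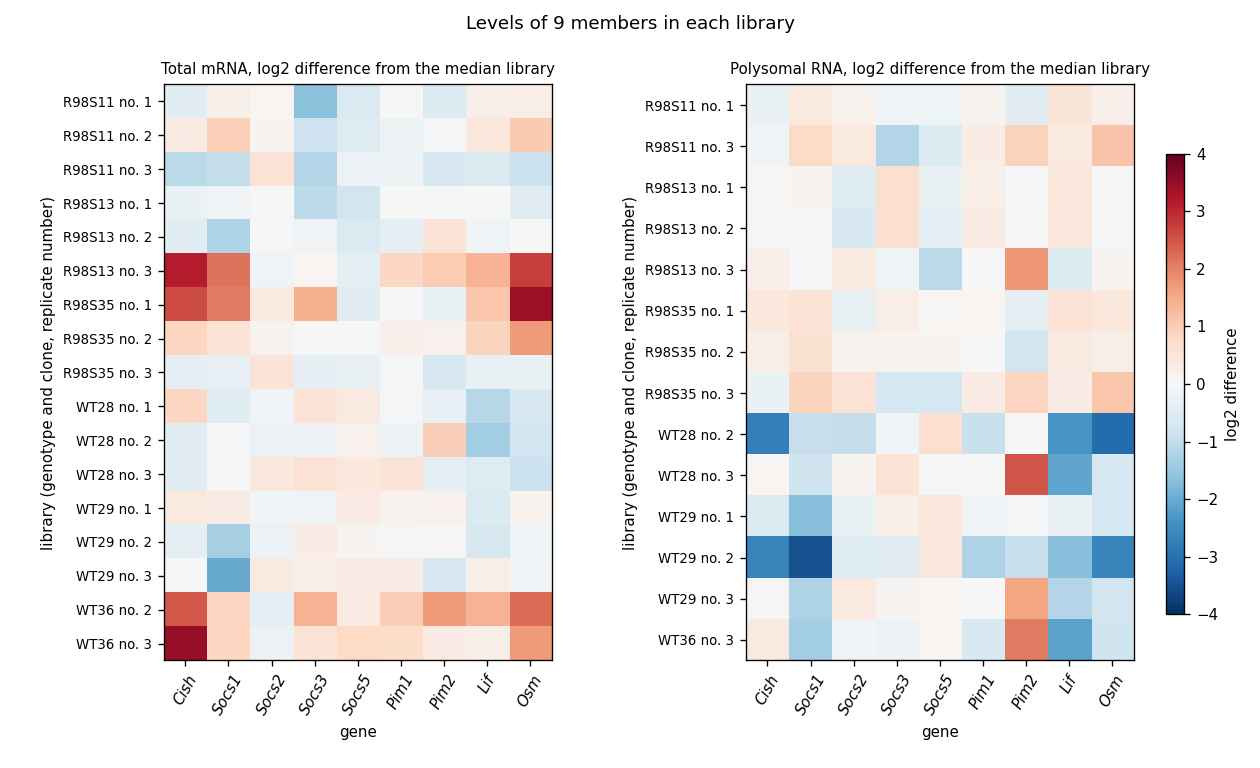
Level of 9 members in each library (rows, by genotype, clone and replicate number) as the log2 difference from the gene's median library, in total mRNA on the left and in polysomal RNA on the right. Red columns for Cish and Osm mark R98S13 number 3, R98S35 number 1 and both WT36 libraries in total mRNA, and blue ones mark WT28 and WT29 of number 2 in polysomal RNA.

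Ba/F3 cells were checked against lineage markers. Of 10 B lineage markers, Ptprc, Cd79a and Cd79b had a mean of at least 10 normalized counts, while Pax5, Ebf1 and Rag1 were among those that did not. These markers summed to 4226 to 6872 in R98S and 4554 to 9718 in WT total mRNA, and to 2155 to 4573 and 2696 to 3533 in polysomal RNA. Cd79b was higher in R98S in both (0.87 and 1.49, limma adjusted p 0.00667 and 0.0228), Ptprc was lower in total mRNA (-0.48, limma adjusted p 0.0646) and not called in polysomal RNA (-0.44, limma adjusted p 0.342), and Cd79a was called in neither. The summed level of mast cell and basophil markers was 294 to 3944 in R98S and 77.9 to 491 in WT total mRNA, and 278 to 2389 and 121 to 451 in polysomal RNA. Cpa3 was higher in R98S (3.20 and 3.51, limma adjusted p 8.1e-04 and 0.00199), as was Hdc (1.28 and 1.15, limma adjusted p 0.0516 and 0.0597). Mcpt8 was higher in total mRNA (2.99, limma adjusted p 0.0766) and not called in polysomal RNA (1.41, limma adjusted p 0.437). Ms4a2 was called in neither, and the defining markers Kit and Fcer1a were under a mean of 10. T lineage markers summed to 84.1 to 156 in R98S and 48.3 to 255 in WT total mRNA, and in polysomal RNA to 85.6 to 360.0 and 37.0 to 77.9, which do not overlap. Cd3d was higher in R98S in both (1.85 and 3.08, limma adjusted p 2.2e-04 and 7.66e-04). Lck was higher in polysomal RNA (0.83, limma adjusted p 0.0228) and not called in total mRNA (0.80, limma adjusted p 0.1001). Cd3g was lower in R98S total mRNA (-3.06, limma adjusted p 0.00887) and under a mean of 10 in polysomal RNA, and Cd3e, Cd4 and Cd8a stayed under a mean of 10. Myeloid markers summed to 2.76 to 417 in R98S and 51.0 to 567 in WT total mRNA, and to 2.93 to 68.4 and 29.3 to 948 in polysomal RNA, with Lyz2 lower in R98S (-2.66 and -3.17, limma adjusted p 0.0132 and 0.00970). Erythroid markers summed to 215 to 1103 and 500.3 to 2288 in total mRNA and to 344 to 543 and 389 to 1978 in polysomal RNA, with Hba-a1 lower (-3.41 and -2.68, limma adjusted p 4.8e-04 and 0.0327). Apart from the T lineage sum in polysomal RNA, ranges of these sums overlapped between genotypes. The part of these differences in the results for the STAT targets was not tested.

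The comparison of polysomal RNA asked which of these transcripts differ in the RNA that is being translated. The cytokines Lif and Osm and the JAK inhibitor Socs1 were 3.59- to 4.01-fold higher in R98S, Pim1 was 1.57-fold higher and Socs5 was 1.58-fold lower. Cish, Socs2, Socs3 and Pim2 were not called. At an adjusted p under 0.1 from limma over all 10707 genes tested, 4 of the 9 measured members were higher in R98S, where 7.66% of all genes were, and 1 was lower, where 5.87% were. The median log2 fold change of the 9 members was 0.65 against -0.02 over all genes.

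Osm had 4772 (lowest), 5546 (median) and 10624 (highest) normalized counts in the 8 R98S libraries and 572, 2814 and 2949 in the 6 WT libraries. The groups did not overlap. The log2 fold change of Osm, 1.84 with an SE of 0.39, was called (limma adjusted p 0.00618), and within numbers 1, 2 and 3 the difference was 0.90, 2.97 and 1.54. Without both WT libraries of number 2 it fell to 1.14 and kept its call (limma adjusted p 0.00812).

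Lif ranged from 939 over a median of 1810 to 2062 in R98S and from 269 over 371 to 1119 in WT. Only R98S13 number 3, with 939, and WT29 number 1, with 1119, overlapped, and the other 7 R98S libraries lay above all WT libraries. Its log2 fold change of 1.93 had an SE of 0.29 (limma adjusted p 3.52e-04). Within numbers 1, 2 and 3 it was 0.80, 2.40 and 1.86.

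Socs1, which inhibits JAK kinase activity directly, had 772, 1091 and 1466 normalized counts as the lowest, median and highest R98S value and 68.8, 318 and 451 in WT. No WT library reached the lowest R98S library. Socs1 was called with a log2 fold change of 2.00 and an SE of 0.34 (limma adjusted p 0.00116), and the difference was 2.08, 2.49 and 1.69 within the 3 numbers. Socs1 and Osm, 2 of the 9 members, had no overlap between genotypes, where 4.96% of all tested genes had none.

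Lif, Osm and Socs1 were called in all 35 alternative settings tried for polysomal RNA, among them a fit on clone means with 3 values a genotype (adjusted p 0.00532, 0.0110 and 0.0128) and leaving out any single library, clone or number. Over these settings their largest adjusted p was 0.0174, 0.0551 and 0.0313.

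Pim1, a survival kinase, had 8506, 9785 and 10842 normalized counts in R98S and 3678, 6805 and 8624 in WT. The groups overlapped in 2 R98S libraries, and 6 lay above all WT values. A log2 fold change of 0.65 with an SE of 0.20 was called (limma adjusted p 0.0528). It was 0.25, 1.22 and 0.42 within numbers 1 to 3. The call held in 24 of 35 alternatives and was lost without WT29 number 2 (0.50, adjusted p 0.115) or without WT36 number 3 (0.62, adjusted p 0.106), and without both WT libraries of number 2 the log2 fold change was 0.36 (adjusted p 0.187). On clone means its limma adjusted p was 0.102, and leaving out any 1 of the 3 R98S clones ended the call as well (adjusted p 0.146 to 0.172). All 3 R98S clones had a higher mean than all 3 WT clones.

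Socs5 had 154, 257 and 346 normalized counts in R98S and 313, 392.2 and 516 in WT, and 6 of 8 R98S libraries were below all WT libraries. It was called at a log2 fold change of -0.66 with an SE of 0.20 (limma adjusted p 0.0480), and the difference was negative within each number (-0.60, -0.68 and -0.81). The call held without any single library. It did not hold on clone means (adjusted p 0.151), without number 1 (0.150) or 2 (0.167), without clone R98S11, R98S13, WT28 or WT29 (0.101 to 0.189), or without both WT libraries of number 2 (-0.52, adjusted p 0.147).

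Cish had 1616, 1961 and 2624 normalized counts in R98S and 294, 1658 and 2532 in WT. R98S libraries were narrow, with a highest over lowest ratio of 1.62, while WT libraries spanned 8.61-fold. The log2 fold change of 0.94 (SE 0.45) was not called (limma adjusted p 0.243, 95% confidence interval -0.02 to 1.91). With the replicate number as a block, which takes up the difference between numbers, it was 0.91 and was called (limma adjusted p 0.0720). It was not called once clone was added to the block as a correlated group (0.84, limma adjusted p 0.214) or on clone means (limma adjusted p 0.356). In the fit with the block alone 15.2% of all genes were higher in R98S. The difference was 0.65 and 2.81 in numbers 1 and 2 but -0.23 in number 3, and it was 0.052 without both WT libraries of number 2. Leaving out number 3 gave 2.08 (limma adjusted p 0.00916) and leaving out number 2 gave 0.023.

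Socs2, which limits growth hormone signalling, had medians of 785 in R98S and 629.6 in WT, and its log2 fold change was 0.24 (95% confidence interval -0.26 to 0.75). Socs3, which binds gp130-type receptors, had medians of 175.9 in both genotypes and a log2 fold change of -0.09 (-0.68 to 0.50). Pim2 had 216 to 1202 normalized counts in R98S and 192 to 2091 in WT, with the values of number 3 highest in both genotypes, and a log2 fold change of -0.64 (-1.76 to 0.49). None of the 3 was called (limma adjusted p 0.644, 0.903 and 0.566).

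**Figure D2:**
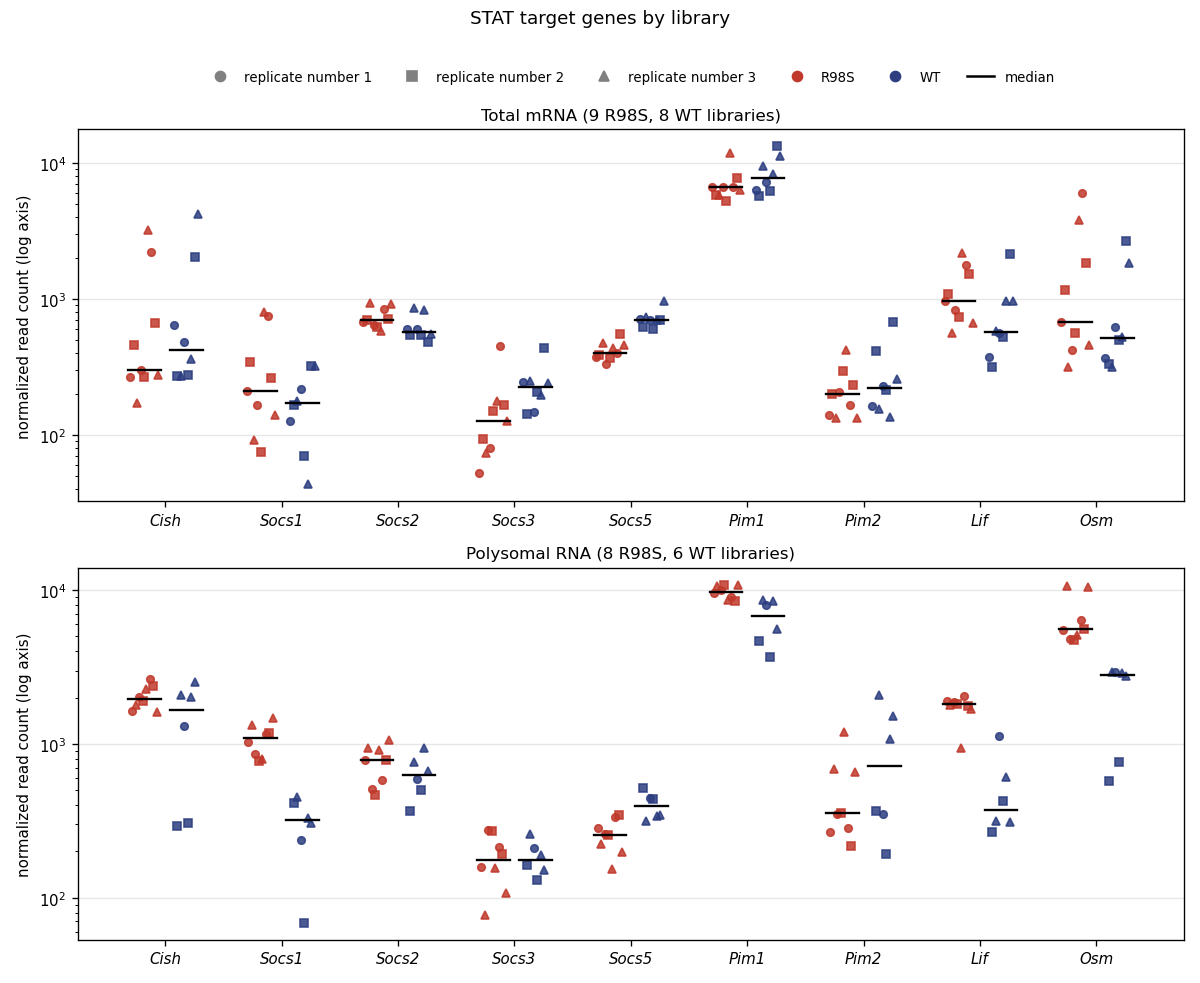
Normalized read count (log axis) of 9 members in each library of total mRNA (top) and polysomal RNA (bottom), with R98S in red, WT in blue, the replicate number as the symbol and a bar at the median. In polysomal RNA the R98S points of Socs1 and Osm lie above all WT points, and in total mRNA those of Socs5 lie below all WT points.

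In total mRNA fewer members differed, and those that did were lower. Socs5 was 1.71-fold lower in R98S and Socs3 was 1.76-fold lower, while the genes that were higher in polysomal RNA, Lif, Osm, Socs1 and Pim1, were not called. Of 11133 genes tested, 14.5% were higher and 15.8% lower in R98S. Among the 9 measured members 0 were higher and 2 lower with limma (0 higher also at an unadjusted p under 0.05, and 0 higher with edgeR and DESeq2), and their median log2 fold change was -0.26 against 0.0035 over all genes.

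Socs5, linked to the turnover of the EGF receptor, had 334, 403 and 554 normalized counts as the lowest, median and highest of 9 R98S libraries and 603, 699.9 and 961 in 8 WT libraries. The highest R98S library was below the lowest WT library, and genotypes were separated in either direction for 3.53% of all tested genes. Socs5 was called at a log2 fold change of -0.77 with an SE of 0.11 (limma adjusted p 6.9e-05), and the difference was -0.94, -0.58 and -0.79 in numbers 1 to 3. It was called in all 39 alternatives, with a largest adjusted p of 0.00669.

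Socs3 had 52.4, 125 and 450.5 normalized counts in R98S and 142, 224 and 436 in WT, and 5 of 9 R98S libraries were below all WT libraries. R98S35 number 1, among the libraries with high Cish, had the highest value of both groups. Its log2 fold change of -0.81 had an SE of 0.33 (limma adjusted p 0.0834). It was called in 15 of 39 alternatives and not in edgeR (adjusted p 0.224), DESeq2 (adjusted p 0.178) or on clone means (adjusted p 0.135), and the removal of any of 11 single libraries ended the call (adjusted p 0.104 to 0.164).

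Lif had 558, 969 and 2172 normalized counts in R98S and 315, 570.2 and 2151 in WT total mRNA, and its log2 fold change of 0.63 (95% confidence interval -0.08 to 1.34) was not called (limma adjusted p 0.191). Without WT36 number 2, which had 2151, it was 0.87 and was called (adjusted p 0.0436), and without clone WT36 it was 1.00 (adjusted p 0.0270). Without the 4 libraries of highest Cish it was 0.74 (adjusted p 0.0670), a setting that was added after their values had been seen.

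Osm spanned 19.3-fold in R98S (314, 677 and 6060) and 8.56-fold in WT (313, 512 and 2683), and its log2 fold change was 0.65 (-0.56 to 1.86). Socs1 had 75.2, 209 and 797 normalized counts in R98S and 43.2, 172 and 322 in WT, with a log2 fold change of 0.62 (-0.40 to 1.63). Cish had 172, 302 and 3195 in R98S and 271, 421 and 4198 in WT, with a log2 fold change of -0.27 (-1.60 to 1.06) that turned to 0.13 without WT36 number 3. These intervals hold no difference as well as a 2-fold one. None of them was called (limma adjusted p 0.452, 0.388 and 0.802).

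Pim1 had medians of 6650 in R98S and 7800 in WT and a log2 fold change of -0.26 (-0.63 to 0.10). Its highest values were 13319 in WT36 number 2, 11889 in R98S13 number 3 and 11242 in WT36 number 3, which were among the libraries of high Cish. Pim2 had 132 to 420.3 in R98S and 135 to 678 in WT, with a log2 fold change of -0.29 (-0.91 to 0.33). Socs2 had 581 to 940 in R98S and 485 to 857 in WT, with a log2 fold change of 0.24 (-0.03 to 0.52). None of the 3 was called (limma adjusted p 0.295, 0.521 and 0.192), although Socs2 passed without WT28 number 3 (0.31), without number 3 (0.33) or without clone R98S13 (0.36), with adjusted p of 0.0835 to 0.0939.

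Pim3 stayed under the filter of a mean of 10 normalized counts in both tables and entered no main test. It had 9 reads in all over 9 R98S total mRNA libraries, of which 6 had none, and 43 reads over 8 WT libraries, all of which had at least 1. In polysomal RNA 8 R98S libraries held 4 reads and 6 WT libraries 13. With no filter its total mRNA log2 fold change on the log2(value + 1) scale was -1.92 (SE 0.40, limma adjusted p 0.00312). In polysomal RNA it was -0.86 (adjusted p 0.418). These values rest on at most 9 reads in a library.

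**Figure D3:**
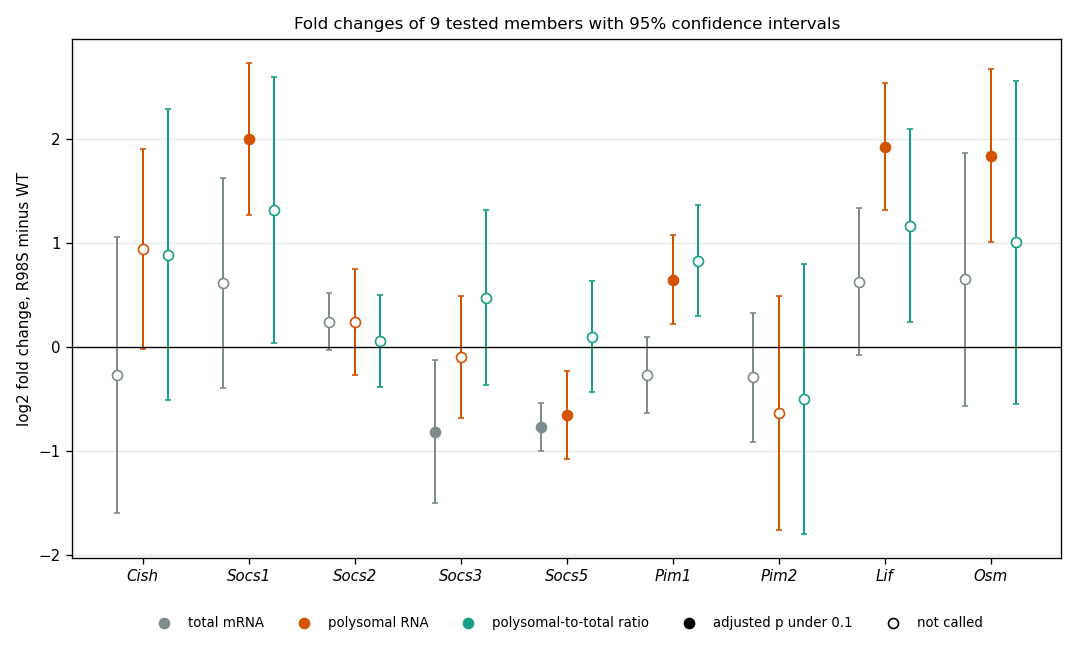
Log2 fold change of R98S minus WT for 9 tested members in total mRNA (grey), polysomal RNA (orange) and the polysomal-to-total ratio (green), with 95% confidence intervals and filled points for an adjusted p under 0.1. Filled points stand for Socs3 and Socs5 in total mRNA and for Socs1, Socs5, Pim1, Lif and Osm in polysomal RNA, and no ratio is filled.

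Translational efficiency (TE) was taken as the ratio of the polysomal to the total mRNA level of the same culture, in 8 R98S and 6 WT cultures. The 2 tables were normalized separately, so only ratios relative to other genes can be read. It asks whether the difference between genotypes in polysomal RNA exceeds that in total mRNA. None of the 9 members was called (limma), and 0.0376% of 10627 genes were. At an unadjusted p under 0.05 there were 3 members, Pim1, Lif and Socs1, where 5.96% of all genes passed. Neither edgeR nor DESeq2 called a member.

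Osm had a ratio of 1.05 in R98S35 number 1, 1.34 in R98S13 number 3 and 3.07 in R98S35 number 2, and of 8.06 to 33.7 in the other 5 R98S cultures. In WT it was 1.73 and 1.52 in WT28 and WT29 of number 2, 1.497 in WT36 number 3, and 9.34, 4.75 and 5.49 in the others. Low ratios thus occurred in cultures with a high total mRNA level and in those with a low polysomal level. The log2 fold change was 1.01 (95% confidence interval -0.55 to 2.56).

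Cish showed the same cultures at the extremes. Its ratio was 0.71 in R98S13 number 3, 1.18 in R98S35 number 1 and 0.60 in WT36 number 3, against 3.56 to 10.3 in the other 6 R98S cultures and 1.086 to 7.65 in the other 5 WT cultures. The log2 fold change was 0.89 (-0.51 to 2.29).

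Pim1 had the smallest p of the members. Its ratio was 1.098 to 2.07 in 7 R98S cultures and 0.72 in R98S13 number 3, against 0.50 to 1.095 in WT. The 7 lay above all WT cultures, although the lowest of them nearly equalled the highest of WT. The log2 fold change was 0.83 (0.30 to 1.36, limma p 0.00447, adjusted p 0.664), and it was 0.38, 1.13 and 0.76 within numbers 1 to 3. With the replicate block the adjusted p was 0.197.

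Lif had ratios of 0.43 to 3.21 in R98S and 0.32 to 1.98 in WT, with a log2 fold change of 1.17 (0.24 to 2.10, limma p 0.0168, adjusted p 0.747). It was -0.19 in number 1 and 1.02 and 1.66 in numbers 2 and 3. Socs1 had ratios of 1.00 to 14.5 in R98S and 0.95 to 7.50 in WT, with a log2 fold change of 1.32 (0.04 to 2.60, limma p 0.0443, adjusted p 0.8293). Socs5 had ratios below 1 in all 14 cultures, 0.35 to 0.83, and a log2 fold change of 0.10 (-0.43 to 0.63). Socs2 (0.06), Socs3 (0.48) and Pim2 (-0.50) were not called either.

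**Figure D4:**
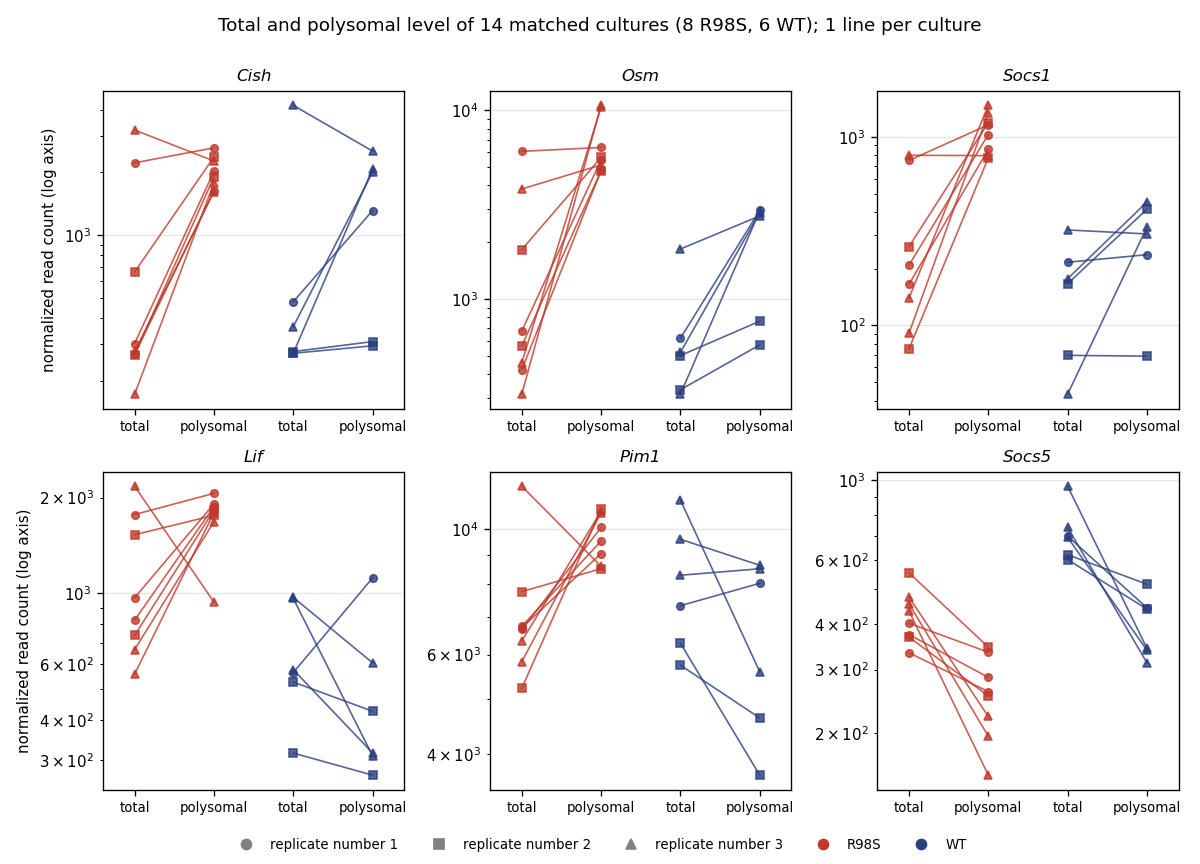
Normalized read count (log axis) in total mRNA and polysomal RNA of 14 matched cultures, with 1 line per culture, R98S in red and WT in blue. Total mRNA levels of Cish, Osm and Socs1 spread widely within each genotype while polysomal levels of R98S lie close together, and all lines of Socs5 fall.

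Clone means show whether single clones carry these differences. In polysomal RNA all 3 R98S clones were above all 3 WT clones for Lif, Osm, Socs1 and Pim1 and below them for Socs5. Over all genes tested there, 13.8% had their R98S clones above and 13.4% below all WT clones. WT36 is a single library there, and R98S11 and WT28 have 2 each. For the ratio, the means of all R98S clones were above those of WT for Cish, Lif, Osm, Pim1 and Socs1, none of which was called, where 9.34% of all genes were ordered in this way. Geometric means of Osm were 7621, 4900 and 7196 normalized counts in R98S11, R98S13 and R98S35, against 1295, 1863 and 2756 in WT28, WT29 and WT36. Those of Lif were 1852, 1475 and 1826 against 291, 661 and 309, and those of Socs1 were 1169, 806 and 1261 against 431, 176 and 305. In total mRNA only Socs5 of the 9 tested members was separated by clone, with 409, 377 and 467 in R98S and 691, 664 and 820 in WT, an order shared by 20.2% of all genes tested. Pim3, which was under the filter, had the same order on at most 9 reads in a library. WT36 had the highest clone mean of total mRNA for 9 of the 10 genes, the exception being Socs2.

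**Figure D5:**
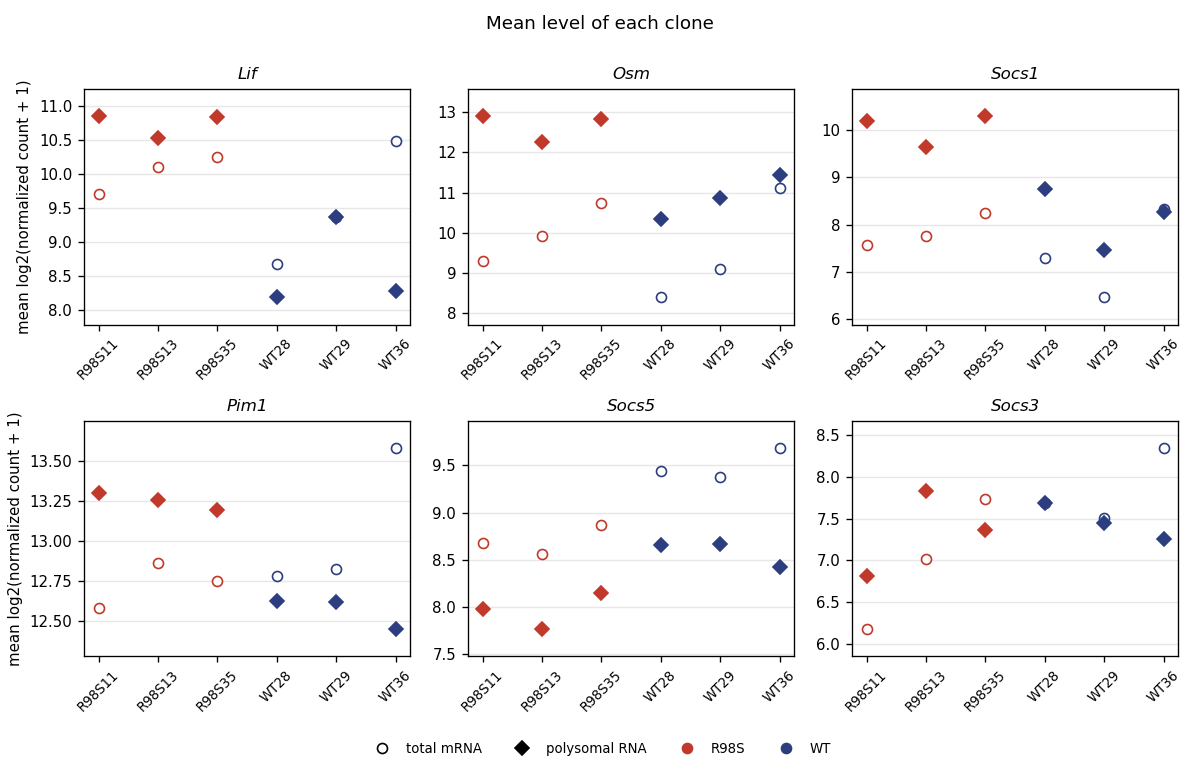
Mean log2(normalized count + 1) of each clone for Lif, Osm, Socs1, Pim1, Socs5 and Socs3, with total mRNA as open circles and polysomal RNA as filled diamonds, R98S in red and WT in blue. Filled red diamonds of Lif, Osm, Socs1 and Pim1 lie above all filled blue ones, those of Socs5 below, and WT36 has high open circles.

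The genes whose polysomal level followed Cish most closely, over 14 libraries and after removal of genotype and replicate number, were Akap10 (r = 0.91), Tubb6 (0.89), Fbxo8 (0.87), Cep76 (0.87) and Siah1b (0.86). For Pim1 they were Klhl2 (0.84), Ralgps1 (0.78), Fosl2 (0.78), Otub2 (0.77) and Clcn2 (0.77). They were the highest of 8820 genes whose mean was 100 or more in each table, and the libraries share clones and depth. In the 17 total mRNA libraries the same r was 0.71 for Akap10 and 0.15 for Fbxo8 with Cish, and 0.67 for Fosl2 and -0.06 for Ralgps1 with Pim1.

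Counts of called genes in the pathway lists stand against 14.5% higher and 15.8% lower over all genes in total mRNA, and 7.66% and 5.87% in polysomal RNA. Upstream of the 10 genes, the shared beta chain of the IL-3 receptor was higher in R98S total mRNA, with 94858 ± 20069 normalized counts of Csf2rb (SD, n = 9) against 41121 ± 8256 in the WT libraries (SD, n = 8), which is 2.30-fold (limma adjusted p 1.8e-05). In polysomal RNA it was 2.51-fold higher (limma adjusted p 0.0185), a call that held in 32 of 35 alternatives. Its near-identical copy Csf2rb2 can share reads with it. The alpha chain Il3ra was not called, at 0.12 and 0.23 (limma adjusted p 0.690 and 0.660). Of 14 tested receptor genes of IL-3, LIF, oncostatin M and related cytokines, 3 were higher and 3 lower in total mRNA and 3 and 2 in polysomal RNA. With the replicate block they were 4 and 3, which added Ifngr1, and 4 and 2, which added Il2rg. The blocked fits called 18.5% of all genes higher and 19.9% lower in total mRNA, and 15.2% and 15.7% in polysomal RNA. Among the calls lost on clone means were those of Il2rb in both tables and of Ifnar2 in polysomal RNA. Lifr, Osmr and Il6st, the receptor chains for LIF and oncostatin M, were nearly unread, with at most 3 reads in any library. Of 10 tested JAK and STAT genes 3 were higher in total mRNA, Stat3 (0.30), Jak1 (0.36) and Stat5a (0.23), with limma adjusted p of 0.0706, 0.0713 and 0.0750. These 3 calls held in 25, 22 and 20 of 39 alternatives and not on clone means (adjusted p 0.208, 0.245 and 0.192). In polysomal RNA 0 were called with limma (0 also at an unadjusted p under 0.05 and 0 with edgeR or DESeq2).

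Among 21 other genes that STAT5 or IL-3 is known to induce and that were tested in total mRNA, 1 was higher and 6 were lower in R98S, with a median log2 fold change of -0.39. With the replicate block 2 were higher, Ccnd1 and Id2, and 8 lower, Bcl2l1, Mcl1, Myc, Id1, Ccnd3, Dusp6, Gadd45g and Spry2, in a fit that called 18.5% of all genes higher and 19.9% lower. On clone means Bcl2l1, Ccnd3, Dusp6, Gadd45g, Id1, Mcl1 and Myc were called in total mRNA. The higher gene Ccnd1 lost its call on clone means in total mRNA and in polysomal RNA (limma adjusted p 0.136 and 0.181). Of 19 tested in polysomal RNA 1 was higher and 4 were lower, with a median of -0.32. With the replicate block 5 were higher, Bcl2, Ccnd1, Id2, Fos and Cdkn1a, and 8 lower, Bcl2l1, Mcl1, Myc, Id1, Junb, Dusp6, Gadd45g and Spry2, where 15.2% and 15.7% of all genes were, and on clone means Bcl2l1, Dusp6 and Id1 were called. Id1, an inhibitor of differentiation factors, was lower in both, at -2.99 in total mRNA (limma adjusted p 2.0e-04) and -2.44 in polysomal RNA (limma adjusted p 0.00450). Dusp6, a phosphatase that switches off ERK, was lower too, at -1.01 and -0.94 (limma adjusted p 0.00184 and 0.00842). The stress response gene Gadd45g was at -1.37 and -1.58 (limma adjusted p 4.4e-04 and 0.0376, the latter 0.136 on clone means) and the cyclin Ccnd3 at -0.74 and -0.23, the latter not called (limma adjusted p 3.9e-04 and 0.522).

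Of 13 phosphatases and other brakes on JAK-STAT signalling, 1 was higher and 4 lower in total mRNA, and 1 was higher and 1 lower in polysomal RNA. The replicate block called 1 higher and 6 lower in total mRNA, where it added Pias1 and Pias2. The higher one was Cblb, a ubiquitin ligase, at 1.41 and 1.47 (limma adjusted p 1.9e-05 and 7.06e-04), and its libraries did not overlap in either table. On clone means Cblb, Pias1, Pias3, Ptprc and Usp18 were called in total mRNA, and Ptpn6 lost its call (limma adjusted p 0.254). In polysomal RNA only Cblb was called on clone means, and Usp18, the lower one, was not (limma adjusted p 0.136). Among the remaining SOCS box proteins Socs4 was higher in polysomal RNA at 0.62 (limma adjusted p 0.0493, held in 28 of 35 alternatives and 0.136 on clone means) and not called in total mRNA at 0.15 (adjusted p 0.429), and Socs6 and Socs7 were called in neither. The adaptor and ligase subunits that SOCS boxes bind, Tceb1, Tceb2, Cul5 and Rnf7, were not called by limma, edgeR or DESeq2 (0 at an unadjusted p under 0.05), at -0.04 to 0.17 in total mRNA and -0.33 to -0.0032 in polysomal RNA.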

How the data were processed

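Values were deposited as a signal per gene, namely read counts that the authors divided by DESeq2 size factors within each of 2 tables (17 total mRNA and 14 polysomal libraries). Per the methods of the study, poly(A) libraries were stranded, Bowtie2 was used to discard reads matching rRNA or tRNA, and the rest were aligned to mm10 with Tophat (TopHat2 2.0.11 in the submitters' processing notes), filtered on mapping quality and counted on exons. The annotation and strand setting of the counting are not given in the sources used here. Groups came from the sample labels, and 0 columns were left unmatched. Values were whole multiples of a step in each library (100% within 0.01 of a whole read), which gave 8831180 to 22059792 reads per library.

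Within each table log2(value + 1) of genes with a mean of at least 10 was compared between R98S and WT with limma 3.58.1 (lmFit, eBayes with trend, R 4.3.3), two-sided, with Benjamini-Hochberg adjustment over all genes and calls at an adjusted p under 0.1. Fold changes understate those of low genes. The study used DESeq2, and Babel for TE. TE was tested as the difference of log2 levels over 14 matched cultures, with the variance trend on the mean level. Tests of the fits on simulated data are not shown, and no result here rests on them. Same-numbered libraries of both genotypes deviated together (total mRNA r over genes 0.62, 0.55 and 0.48 for numbers 1 to 3, polysomal r 0.70, 0.67 and 0.87, ratio r 0.67, 0.54 and 0.81), so the numbers pair the libraries and a blocked fit is given where it changes a call. Alternatives were pseudocounts of 0.5 and 5, no filter and a mean of at least 50, TMM and quantile scaling, replicate blocks, clone means, edgeR 4.0.16 and DESeq2 1.42.0 on recovered reads, matched libraries, and leaving out libraries, clones and numbers.

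The members and gene lists were chosen with earlier results of these data known. All 10 members are named, with JAK, STAT and receptor genes and the 5 genes most like Cish and Pim1. Of the other lists up to 4 genes were picked by smallest adjusted p. Genes of these lists that were called with the replicate block or on clone means, or lost a call there, are named as well. Positions are from the GENCODE annotation (mm10).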

Additional observations from a re-analysis of the deposited data

Results flagged for a closer look

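Of 54 groups of 6 to 9 values of the tested members, 4 held a library that stood far from the rest by Dixon's test. The test was run on log2 values, not on the counts printed here, and chance alone gives such a library in about 1 group of 20. WT29 number 2 had the lowest polysomal Socs1 of its group, 68.8 normalized counts against 237 to 451. WT36 number 3 had the highest total mRNA Socs5 of WT, 961 against 603 to 739. R98S13 number 3 stood out in total mRNA Pim1, where it had 11889 against 5234 to 7748 in the other R98S libraries. The same culture had the lowest polysomal Lif of R98S, 939 against 1679 to 2062.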

How the results depend on the processing

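Of 40 alternatives, those that left out 1 library, clone or number gave 1 to 2 members called in total mRNA and 3 to 6 in polysomal RNA, where 2 and 5 were called as reported, and 0 in TE. In total mRNA 1 was called, Socs5, with the replicate block and clone as a correlated group, on clone means, with edgeR, with DESeq2 and over the matched libraries. In polysomal RNA 3 were called on clone means and 3 without both WT libraries of number 2, and 6 with the replicate block, which added Cish, but not with clone added to it. In TE the replicate block called 0 members. The cause was not tested.

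Some differences near 0 turned direction. Over the settings that left out a library, clone or number, Cish total mRNA log2 fold change ran from -0.72 to 0.48 and was 0.052 over the matched libraries. Socs3 polysomal RNA log2 fold change ran from -0.39 to 0.40. Socs2 TE log2 fold change ran from -0.095 to 0.19, Socs5 TE log2 fold change from -0.11 to 0.30 and Pim2 TE log2 fold change from -1.03 to 0.42. Without both WT libraries of number 2, Socs2 polysomal RNA log2 fold change was -0.0095 and Socs2 TE log2 fold change was -0.077. Socs5 TE log2 fold change was -0.0095 with the replicate block and -0.011 with clone added. None of these was called in any setting listed here.

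Counts over the whole table moved more. For polysomal RNA genes called over the whole table, 1449 as reported became 3307 with the replicate block, 2381 with clone added and 751 on clone means, and 599 to 2063 with parts left out, lowest without number 1. For total mRNA genes called over the whole table, 3369 became 1322 without number 3, 1882 without clone R98S11 and 2227 without WT28. For TE genes called over the whole table, 4 became 50 with the replicate block, 59 with clone added, 34 with DESeq2, 1 with edgeR, 0 on clone means, and 0 to 64 with parts left out. Settings that left out both low WT polysomal libraries, or the 4 total mRNA libraries of highest Cish, were chosen after seeing the data, and Cish is not read from the latter. Depth limits Pim3, Lifr, Osmr and Il6st, whose reads are too few for a comparison of genotypes in each library.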
